A study of Mus musculus with 18 samples.

Results

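Removal of the testes by orchidectomy (OD) takes away both the testicular hormone that reaches the epididymis through the blood and the testicular factors that reach it through the lumen of the duct. Removal of 1 testis takes the luminal input from the epididymis of that side only and leaves the other testis to supply the circulation. The component tied to circulating testicular hormone was therefore measured, gene by gene, as a difference of changes on log2 of the deposited normalized FPKM. FPKM is the fragment count scaled to transcript length and library size, and the deposited values were level at the typical gene. The difference of changes is the bilateral change (bilateral OD minus sham) minus the unilateral change (ipsilateral minus contralateral). It used the 12 of 18 libraries that come from the operations, 3 in each of 4 tissues, and no measured value entered the choice of these libraries.

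All 12 libraries are from the initial segment (IS) and caput epididymis, dissected together, of wild-type B6D1F1 male mice operated at 8 weeks and sampled 4 weeks later, at 12 weeks of age. The 4 tissues are the IS-caput of sham-operated males, that of males with bilateral OD, and the contralateral and ipsilateral sides of males with unilateral OD. The contralateral side belongs to an operated mouse and not to an intact one. By the study's methods both sides come from the same 3 males, but no source used here states which libraries share a mouse, so the 2 sides were fitted as separate samples. The labels name no hormone replacement and no hormone level was analysed here, and the bilateral operation removes all testicular products and not androgen alone. The other 6 libraries, *Nell2*-/- and wild-type (WT) males 14 weeks old, entered the estimate of the spread and give side values.

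Testosterone from the Leydig cells acts on the epididymal epithelium through a nuclear receptor that binds DNA after it binds hormone. In this tissue 5α-reductases turn testosterone into the more potent dihydrotestosterone. Principal cells of the proximal duct secrete large amounts of protein into the lumen, among them β-defensins, lipocalins, cystatins and protease inhibitors that come to lie on or around sperm. Luminal factors from the testis, such as the ROS1 ligand NELL2, act on the same cells by the route called lumicrine.

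Epithelial genes were present in all 12 libraries, although the summed principal cell markers were far lower after bilateral OD, as given with the other marker lists. The keratin gene *Krt18* stood at 426, 408 and 384 FPKM in sham and 441, 379.5 and 368 FPKM after bilateral OD, and at 356, 342 and 327 FPKM contralateral and 302, 314 and 311 FPKM ipsilateral. The summed FPKM of all genes ranged from 777753 to 825866 in sham and from 720008 to 724780 contralateral, against 658261 to 689090 ipsilateral and 528664 to 564806 after bilateral OD. Read depth is not known from FPKM. The commonest ratio of low values to those of sham replicate 1, which follows the worth of 1 read, was 0.600 to 0.778 after bilateral OD and 0.732 to 0.999 in the other 9 libraries. Sham replicate 3 stood apart from the other sham libraries in genes such as *Lcn5*, at 1507, 1612 and 5708 FPKM in sham replicates 1 to 3. Contralateral *Lcn5* stood at 6716, 5801 and 5677 FPKM, near sham replicate 3, and which sham libraries are typical was not tested. For the genes named here in which sham replicate 3 lay more than 1.5 times above or below both other sham libraries, the difference is given with and without it. In bulk tissue fewer cells of a type and less RNA per cell cannot be told apart.

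The 2 operations differed at many of the genes tested. With limma and an adjusted p under 0.05, the difference of changes was lower for 3339 of 17302 genes (19.3%) and higher for 3125 (18.1%), with a median over all genes of 0.03. The counts of gene and marker lists below are to be read against these 2 shares. A lower difference means that a gene fell more, or rose less, after bilateral than after unilateral OD. The bilateral change itself was called lower for 5429 genes (31.4%) and higher for 5253 (30.4%), and the unilateral change for 3212 (18.6%) and 2775 (16%). The differences called lower had a median size of 0.70 log2 units and those called higher 0.78, and 1132 and 1160 of them exceeded 1 log2 unit.

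**Figure D1:**
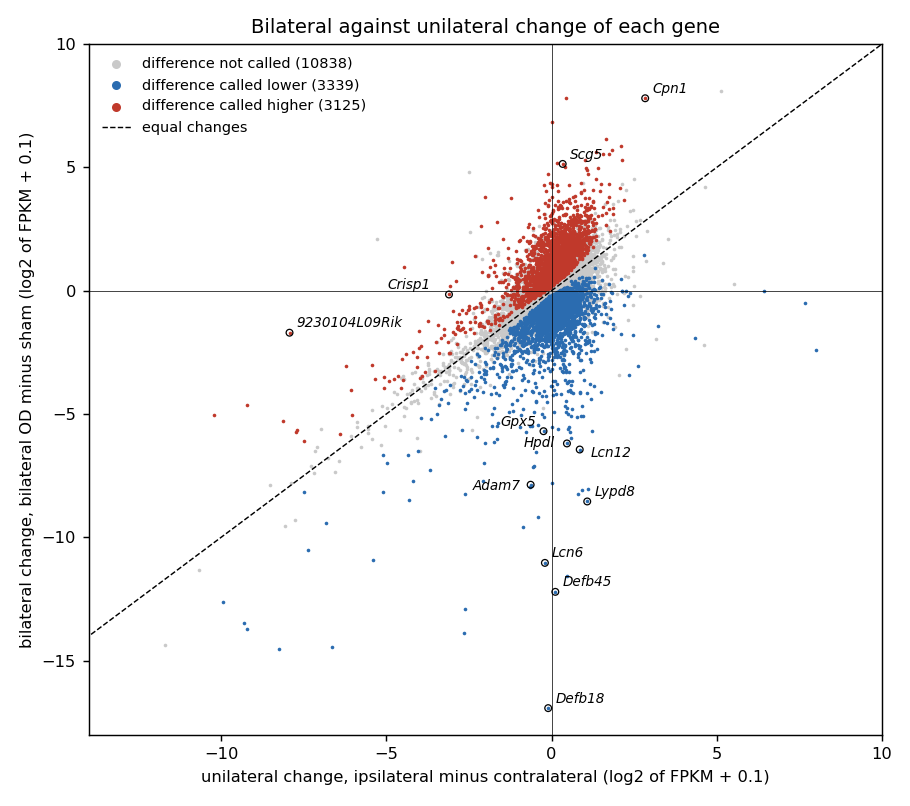
Each point is 1 of the 17302 genes, with its fitted unilateral change (log2 of FPKM + 0.1) on the horizontal axis and its bilateral change on the vertical axis, and the dashed line marks equal changes. Blue points (3339) have a difference of changes called lower and red points (3125) one called higher. *Lcn6*, *Defb45* and *Defb18* lie far below 0 on the vertical axis and near 0 on the horizontal one, and *9230104L09Rik* lies far to the left above the line.

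A called change after bilateral OD with no called unilateral change was the most frequent pattern in both directions. In these counts, only means that the other change was not called, which does not show that it was absent. Of the 3339 with a lower difference, 1560 fell after bilateral OD with no called unilateral change, 925 fell after both operations, 495 fell after the bilateral and rose after the unilateral operation, and 275 rose after the unilateral operation only. Of the 3125 with a higher difference, 1738 rose after bilateral OD only, 703 rose after both, 204 rose after the bilateral and fell after the unilateral operation, 259 fell after the unilateral operation only, and 163 fell after both but less after the bilateral. The fit gives both changes of a gene the same standard error, so scatter near 0 FPKM after bilateral OD can hide a unilateral change. *Teddm1b* had no called unilateral change, at 443, 485 and 452 FPKM contralateral and 649, 695 and 581 FPKM ipsilateral. The libraries of the unilateral sides did not overlap in *Serpinf2* either, whereas those of *Gm1110* did. How many uncalled genes changed ipsilaterally was not tested.

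The difference of changes equals bilateral OD minus ipsilateral plus contralateral minus sham, so an unequal pair of controls enters it. Between contralateral and sham tissue 1036 genes (5.99%) were called lower and 1150 (6.65%) higher. Among the 3339 lower differences, contralateral tissue was called below sham for 542 genes and above it for 173, and bilateral OD was called below ipsilateral tissue for 2950. Among the 3125 higher differences these numbers were 106 below sham, 460 above it and 2699 with bilateral OD above ipsilateral tissue, and these contrasts share libraries. One named gene with unequal controls was *Lars2*, the mitochondrial leucyl-tRNA synthetase. It stood at 72.9 ± 10.6 FPKM (mean ± SD, n = 3, as for all such values) in sham and 47.1 ± 3.79 with bilateral OD, and at 696 ± 54.2 and 488 ± 81.9 FPKM on the contralateral and ipsilateral sides. Its difference of changes was −0.10 ± 0.16 (adjusted p = 0.669, not called), and the contralateral side exceeded sham by 3.26 ± 0.11 log2 units. WT and *Nell2*-/- libraries held 617 ± 49.5 and 635 ± 22.05 FPKM, so the sham and bilateral OD libraries were the ones that stood apart. The cause was not tested.

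The largest negative differences among genes with no called unilateral change belonged to several secreted proteins, which fell to near 0 after bilateral OD. *Defb18*, a β-defensin gene, was listed at 0 in all 3 libraries of bilateral OD. It stood at 14221, 11071 and 12099 FPKM in sham, 8422, 9309.6 and 8474 contralateral and 8775, 8923 and 6884 ipsilateral, so no fold is given. *Lcn6*, a lipocalin gene (GRCm38 chr2:25676638-25681608), stood at 1311, 1033 and 1025 FPKM in sham and at 0.249, 0.719 and 0.429 FPKM after bilateral OD. On the unilateral side it stood at 813, 848 and 799.9 FPKM contralateral and 742, 829 and 592 FPKM ipsilateral. Every library of bilateral OD lay below every other library, and the ipsilateral range ran from below the contralateral one into it. The bilateral change was −11.03 ± 0.22, the unilateral change −0.20 ± 0.22, and the difference −10.83 ± 0.31 (log2 ± SE, adjusted p = 1.7e-12).

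*Gm1110*, a gene known only by a predicted-gene name, fell after bilateral OD and had a unilateral change close to 0. It stood at 839, 852 and 921 FPKM in sham mice against 4.84, 3.04 and 3.64 with bilateral OD, and at 832, 877 and 830.3 FPKM opposite to the operation against 880.2, 845 and 822 on the operated side. The 3 intact or one-sided tissues overlapped, and the difference was −7.82 ± 0.15 with a unilateral change of 0.00 ± 0.11 (adjusted p = 2.2e-16 and 0.985). *Defb45* fell from 758 ± 172 to 0.0967 ± 0.168 FPKM with 2 of 3 libraries at 0, against 725 ± 26.05 and 786 ± 45.3 FPKM on the unilateral sides. *Teddm1b*, a transmembrane protein gene of the epididymis, fell from 484 ± 3.17 to 0.0757 ± 0.0938 FPKM, against 459.6 ± 22.1 and 642 ± 57.2. *Serpinf2*, which encodes the plasmin inhibitor α2-antiplasmin, fell from 147 ± 1.68 to 0.174 ± 0.139 FPKM, against 128 ± 6.74 and 96.9 ± 9.72. Their differences were −12.32 ± 0.55, −12.04 ± 0.34 and −8.78 ± 0.33, and such sizes depend on the 0.1 FPKM added before logs.

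The other genes of this kind were *Defb39*, *Defb30*, *Defb19* and *Spink2*, the last a Kazal protease inhibitor gene. In each the 3 ipsilateral libraries lay above the 3 contralateral ones, so a rise on that side is not excluded. In that order the unilateral changes were 1.10 ± 1.03, 0.80 ± 0.43, 0.55 ± 0.37 and 0.49 ± 0.38, none called. *Defb30* stood at 134, 147 and 523 FPKM in the sham group and 0.438, 0.8102 and 0.651 FPKM with bilateral OD, and at 760.4, 641 and 611 FPKM on the contralateral and 1074, 1029 and 1412 FPKM on the ipsilateral side. In *Defb39*, *Defb30*, *Spink2* and *Lcn5* sham replicate 3 stood far above the other sham libraries and nearer the contralateral ones. Without it the differences were −8.33 for *Defb39*, −8.41 for *Defb30*, −5.52 for *Spink2* and −4.97 for *Lcn5*, against −9.12 ± 1.45, −9.04 ± 0.61, −6.08 ± 0.53 and −5.59 ± 0.59 with it, and all stayed called. *Defb19* gave −6.28 ± 0.53 (adjusted p = 5.6e-07), or −6.00 without that library. Reads of near-identical β-defensin copies may be split between them, and how the counting treated them is not given in the sources used here.

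**Figure D2:**
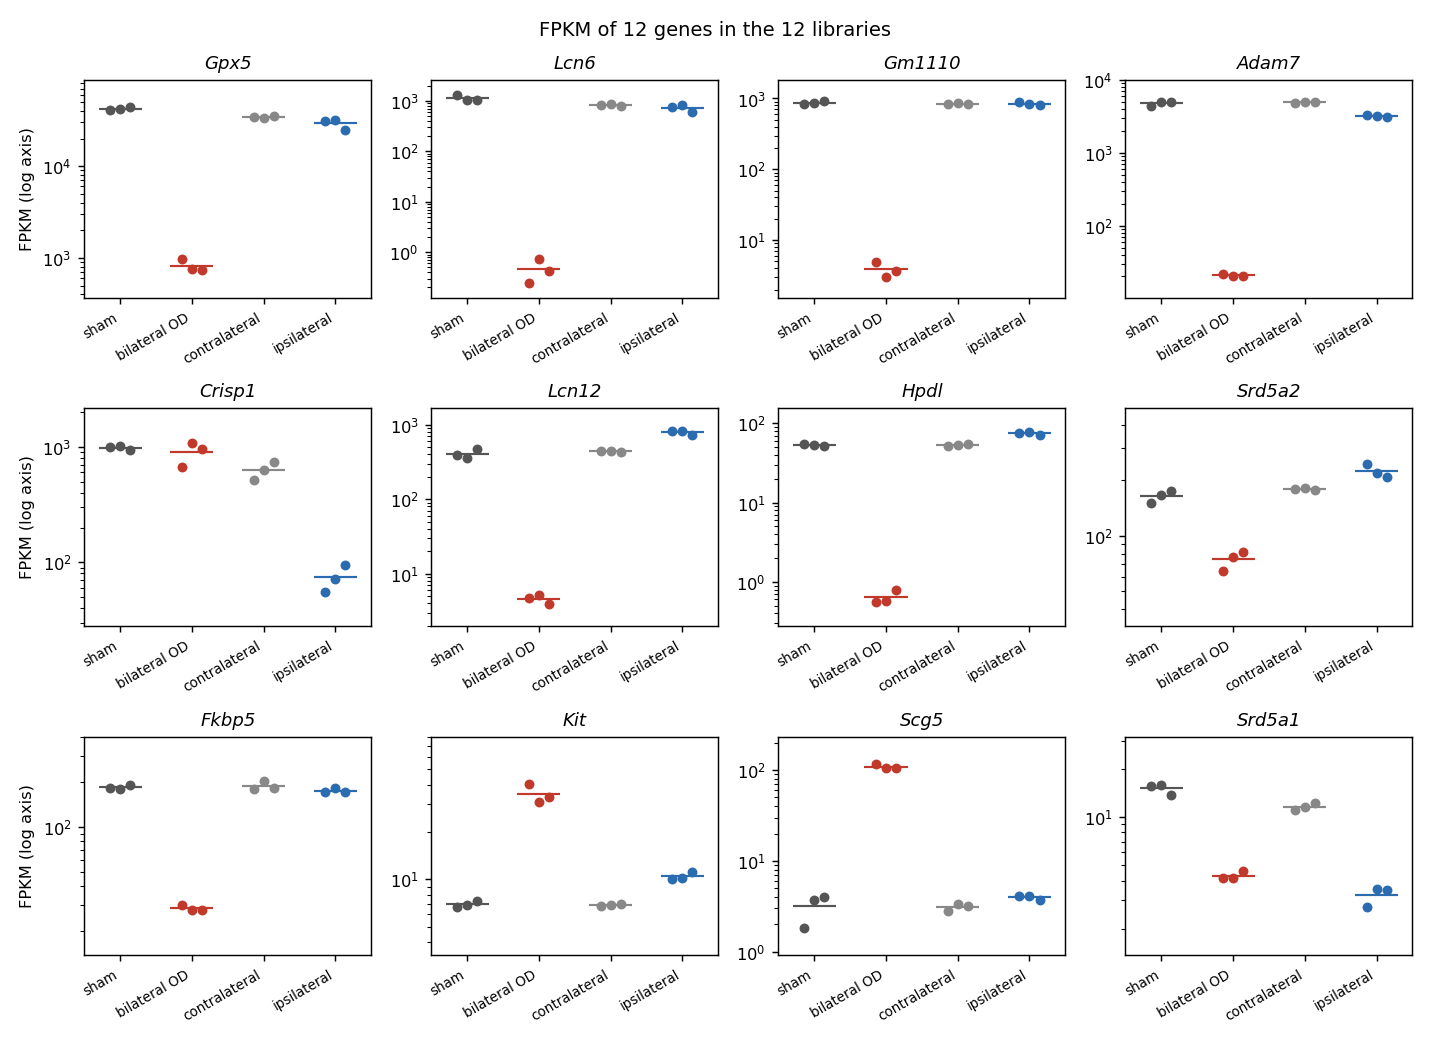
FPKM (log axis, a scale of its own in each panel) of 12 genes in the 12 libraries, with a point for each library and a line at the mean of 3. *Gpx5*, *Lcn6*, *Gm1110*, *Adam7*, *Lcn12*, *Hpdl*, *Srd5a2* and *Fkbp5* are lowest in all 3 libraries of bilateral OD, *Crisp1* in all 3 ipsilateral libraries, and *Kit* and *Scg5* are highest after bilateral OD.

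A second set fell after both operations and further after the bilateral one. *Adam7*, a membrane protein of the ADAM family shed onto sperm, stood at 4449, 5054 and 5034 FPKM in sham and at 21.3, 20.3 and 20.3 FPKM after bilateral OD. It stood at 4867, 5018 and 4942 FPKM contralateral and 3264, 3183 and 3125 FPKM ipsilateral, so that the ipsilateral libraries lay below both controls and far above bilateral OD. The bilateral change was −7.86 ± 0.05, the unilateral −0.63 ± 0.05 and the difference −7.23 ± 0.07 (adjusted p = 5.5e-21), and the *Nell2*-/- change was −0.63 ± 0.05. *Crisp4*, a cysteine-rich secretory protein gene, fell from 238 ± 6.42 to 0.891 ± 0.264 FPKM and from 216 ± 9.02 to 137 ± 3.58 FPKM. *Ly6g5c* fell from 4565 ± 279 to 0.305 ± 0.329 FPKM and from 3369.9 ± 138 to 540.3 ± 87.7 FPKM.

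The lipocalin *Lcn10*, which like *Lcn6* lies on chromosome 2 (chr2:25682726-25686081), fell from 2292 ± 161 to 0.203 ± 0.0435 FPKM and from 1652 ± 21.8 to 267 ± 19.1 FPKM (difference −10.26 ± 0.15, adjusted p = 6.0e-18). *Lcn6* and *Lcn10* thus had bilateral changes of −11.03 ± 0.22 and −12.89 ± 0.11 and unilateral changes of −0.20 ± 0.22 and −2.63 ± 0.11. *Teddm1a* fell from 3215 ± 284 to 0.0476 ± 0.0448 FPKM and from 2532 ± 46.6 to 25.4 ± 2.86 FPKM, where its relative *Teddm1b* had no called unilateral change. Reads of such close copies, the cystatins included, may likewise be split. *Gm15386*, for which no position was found, gave a difference of −8.69 ± 0.27.

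Among genes that rose after bilateral OD with no called unilateral change, *Scg5* encodes a chaperone of prohormone convertase 2. It stood at 1.84, 3.68 and 3.97 FPKM in sham mice against 117, 106 and 105 with bilateral OD, and at 2.81, 3.37 and 3.204 FPKM opposite to the operation against 4.11, 4.15 and 3.66 on the operated side (difference 4.8 ± 0.33, adjusted p = 1.0e-08). *Gadd45b*, a stress-induced gene, rose from 2.78 ± 1.17 to 35.98 ± 7.37 FPKM, against 3.17 ± 0.301 and 4.602 ± 0.417. *Agt*, the angiotensinogen gene, rose from 5.203 ± 3.05 to 67.7 ± 3.44 FPKM, against 10.01 ± 1.67 and 18.04 ± 10.9. The differences of *Gadd45b* and *Agt* were 3.18 ± 0.29 and 3.13 ± 0.55, or 3.49 and 3.56 without sham replicate 3. The 3 libraries of bilateral OD lay above the other 9 for each of these genes. For *Scg5* and *Gadd45b* the ipsilateral libraries also lay above the contralateral ones, so a smaller rise on that side is not excluded.

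The septin gene *Sept4* (difference 3.34 ± 0.23), the growth factor binding protein *Igfbp3* (2.39 ± 0.47), *Wfdc17* (2.29 ± 0.70), *Ifitm1* (1.99 ± 0.31) and the coagulation initiator *F3* (1.98 ± 0.22) rose in the same way. *Igfbp3* varied within bilateral OD, at 20.2, 64.8 and 56.4 FPKM. *Ndufs5*, a complex I subunit, passed only narrowly (5.82 ± 2.1, adjusted p = 0.046). Without any 1 of the 9 bilateral OD, contralateral or ipsilateral libraries its adjusted p was 0.0571 to 0.0886, and with the replicate blocks 0.0572 and 0.0738. Its sham libraries stood at 0.00286, 6.73 and 28.5 FPKM, and its contralateral level of 70.1 ± 9.33 FPKM was above that after bilateral OD, 40.02 ± 15.4 FPKM. Without sham replicate 3 its difference was 7.52 (adjusted p = 0.00586).

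The 4 genes named from those that rose after both operations and more after the bilateral one were *Cpn1*, *Rasl11a*, *Iapp* and *AY761185*. *Cpn1*, the catalytic subunit of carboxypeptidase N, rose from 0.251 ± 0.1996 to 69.2 ± 9.85 FPKM and from 0.703 ± 0.288 to 6.13 ± 4.201 FPKM. *Rasl11a*, a Ras-like gene, rose from 6.63 ± 0.75003 to 219.5 ± 17.2 and from 8.796 ± 0.687 to 11.7 ± 0.617 FPKM. *Iapp*, the gene of the pancreatic peptide amylin, rose from 4.73 ± 1.26 to 230.1 ± 18.5 and from 3.65 ± 0.243 to 9.37 ± 0.932 FPKM. Their differences were 4.97 ± 0.62, 4.63 ± 0.16 and 4.27 ± 0.45. The defensin-like *AY761185* stood at 67.2, 54.3 and 327 FPKM in the sham group and 8562, 7014 and 6870.4 FPKM with bilateral OD, and at 547, 466 and 431 FPKM on the contralateral and 1613, 1296 and 1602 FPKM on the ipsilateral side, and gave 4.49 ± 0.71, or 5.30 without sham replicate 3.

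Among the 495 genes that fell after bilateral and rose after unilateral OD, *Lypd8*, of the Ly6 family, stood at 4746, 4381 and 4816 FPKM in sham mice against 12.3, 13.04 and 11.7 with bilateral OD, and at 3494, 3787 and 3749 FPKM opposite to the operation against 8167, 8467 and 6787 on the operated side. The ipsilateral libraries were the highest of all and those of bilateral OD the lowest, with no overlap (bilateral −8.54 ± 0.09, unilateral 1.08 ± 0.09, difference −9.62 ± 0.12, adjusted p = 4.1e-19). *Lcn12*, a retinoid-binding lipocalin, fell from 409 ± 59.2 to 4.61 ± 0.627 FPKM and rose from 439.9 ± 7.91 to 796 ± 57.4 FPKM. *Hpdl* fell from 53.4 ± 1.93 to 0.6396 ± 0.131 FPKM and rose from 53.7 ± 1.52 to 74.3 ± 3.18 FPKM. *Lrcol1* and the secreted *C1qtnf9* did the same, with differences of −8.98 ± 0.22 (−8.73 without sham replicate 3) and −6.91 ± 0.19. Loss of *Nell2* also raised all 5, by 0.90 ± 0.09 for *Lypd8*, 1.0 ± 0.10 for *Lcn12*, 0.40 ± 0.09 for *Hpdl*, 1.42 ± 0.16 for *Lrcol1* and 0.78 ± 0.13 for *C1qtnf9*. The pseudogene *Atp6v0c-ps2* was called higher after unilateral OD only, but its contralateral libraries stood at 0.171, 0.0104 and 24.9 FPKM and its sham libraries at 146, 307 and 73.2 FPKM. Bilateral OD left it at 106 ± 21.4 FPKM with no called change. Its difference of −8.18 ± 2.58 lost its call without sham replicate 2 or contralateral replicate 1 or 2 (adjusted p = 0.0536 to 0.0607), and was −8.69 (adjusted p = 0.0318) without sham replicate 3.

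Another set was higher after bilateral than after unilateral OD relative to its controls. The cystatin genes *9230104L09Rik* and *Cst8*, whose products belong to a family of cysteine protease inhibitors, led it. *9230104L09Rik* stood at 12236, 11902 and 11052 FPKM in the sham group and 3825, 3609.8 and 3378 FPKM with bilateral OD, and at 8087, 8466 and 8831 FPKM on the contralateral and 27.9, 31.3 and 47.6 FPKM on the ipsilateral side. All 3 bilateral libraries lay below both controls and far above the ipsilateral ones (difference 6.22 ± 0.19, adjusted p = 3.2e-13). *Cst8* fell from 2526 ± 265 to 78.1 ± 11.8 FPKM and from 1686 ± 46.4 to 1.38 ± 0.461 FPKM. The keratin gene *Krt23* fell from 97.2 ± 6.097 to 3.87 ± 0.639 and from 86.6 ± 3.39 to 0.0546 ± 0.0575 FPKM.

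*Crisp1*, a secreted protein that binds sperm, stood at 989, 1018 and 946 FPKM in sham mice against 673, 1079 and 954 with bilateral OD, and at 515, 627 and 745 FPKM opposite to the operation against 55.7, 72.03 and 94.4 on the operated side. Its bilateral libraries overlapped sham and its ipsilateral ones lay below all others (bilateral −0.15 ± 0.42, adjusted p = 0.773, unilateral −3.1 ± 0.42, difference 2.95 ± 0.60, adjusted p = 0.00165). The tight junction gene *Cldn10* also fell on the ipsilateral side, with a unilateral change of −2.9 ± 0.30. Its bilateral change of 0.39 ± 0.30 was not called (adjusted p = 0.28). Its bilateral libraries, at 237, 224 and 206 FPKM, nevertheless lay above those of sham, at 188, 168 and 156 FPKM.

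Receptors for steroid and related hormones were mostly higher after bilateral OD. Of 19 tested, the difference was higher for 12 and lower for 2, with a median of 0.56 against 0.03 over all genes, where 18.1% of genes were called higher. The estrogen receptor α gene *Esr1* rose after both operations, by 0.98 ± 0.08 and 0.55 ± 0.08 (difference 0.43 ± 0.12, adjusted p = 0.0071), while *Esr2* gave −1.48 ± 0.25 and the prolactin receptor *Prlr* −2.06 ± 0.30.

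The thyroid hormone receptor *Thra* (1.32 ± 0.11) and the retinoic acid receptor *Rarg* (1.13 ± 0.09) had higher differences, and so had the glucocorticoid receptor *Nr3c1* (0.73 ± 0.13) and the mineralocorticoid receptor *Nr3c2* (1.45 ± 0.18). *Rxra*, the shared partner of several nuclear receptors, gave −0.03 ± 0.08 (adjusted p = 0.848), and its relative *Rxrb* gave 0.49 ± 0.11 (adjusted p = 0.00191).

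The 2 main 5α-reductase genes differed. *Srd5a1* fell after both operations and *Srd5a2* after the bilateral one only. *Srd5a1* stood at 15.7, 15.9 and 13.8 FPKM in the sham group and 4.15, 4.17 and 4.57 FPKM with bilateral OD, and at 11.03, 11.5 and 12.2 FPKM on the contralateral and 2.74, 3.54 and 3.47 FPKM on the ipsilateral side. It fell by similar amounts, −1.79 ± 0.11 and −1.81 ± 0.11, and the difference of 0.01 ± 0.16 was not called (adjusted p = 0.965). *Srd5a2* stood at 150.4, 167 and 176 FPKM in sham mice against 64.3, 77.04 and 82.01 with bilateral OD, and at 179.9, 181 and 178 FPKM opposite to the operation against 247, 220.5 and 207 on the operated side. It fell after bilateral OD and rose ipsilaterally (difference −1.47 ± 0.13, adjusted p = 1.2e-07). Of the 15 steroid conversion genes tested, 5 had a lower and 1 a higher difference, the latter *Hsd17b11* at 0.86 ± 0.14. Of all genes 19.3% were lower and 18.1% higher. The 17β-hydroxysteroid dehydrogenases *Hsd17b12* and *Hsd17b4* gave −0.35 ± 0.08 and −0.13 ± 0.06, and *Hsd17b10* gave −0.10 ± 0.07, the last 2 not called.

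Of 14 genes known as androgen targets in the epididymis, the difference was lower for 8 and higher for 4, with medians of −3.21 for the bilateral and 0.60 for the unilateral change. *Gpx5*, a secreted glutathione peroxidase, stood at 41014, 41905 and 43703 FPKM in sham and 972, 759 and 733 FPKM after bilateral OD. It stood at 34542, 33669 and 34922 FPKM contralateral and 31157, 31511 and 25000.1 FPKM ipsilateral, with the bilateral libraries far below all others. The unilateral change of −0.24 ± 0.09 was not called (adjusted p = 0.0527), and the difference was −5.45 ± 0.13 (adjusted p = 3.3e-15). The lipocalin *Lcn5* fell after bilateral and rose after unilateral OD, −4.4 ± 0.41 and 1.19 ± 0.41. The sperm-binding defensin relative *Spag11b* gave −1.53 ± 0.14, whereas the cystatin *Cst11* fell less after bilateral than after unilateral OD (1.84 ± 0.32).

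Of 28 androgen targets shared by many tissues, 7 had a lower and 7 a higher difference, against 19.3% lower and 18.1% higher among all genes, with a median of 0.09. *Fkbp5*, a steroid receptor co-chaperone, stood at 182, 181 and 191 FPKM in the sham group and 29.8, 27.8 and 27.7 FPKM with bilateral OD, and at 181, 202 and 183 FPKM on the contralateral and 171, 183 and 171 FPKM on the ipsilateral side, and only the bilateral libraries stood apart. The acyl-CoA binding protein *Dbi* fell after both (709.5 ± 63.5 to 184 ± 10.2 and 514 ± 16.3 to 233 ± 5.14 FPKM, difference −0.80 ± 0.16). *Tpd52* gave −0.85 ± 0.06 and *Ndrg1* 0.88 ± 0.11. RefSeq promoter windows, from 250 bases before to 50 after each gene's start on GRCm38, were searched on both strands for the androgen half-site AGAACA. It was in the windows of 15.8% of the 2714 genes called lower that have one, 15.8% of the 2428 called higher and 16.2% of all 13565 genes tested with a window. Of the epididymal androgen targets above 4 of the 8 with a window held it, and of the cholesterol synthesis genes 4 of 14.

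Of 18 genes known to rise in the prostate or other androgen-dependent tissue after castration, 7 had a higher and 3 a lower difference (median 0.28). Of all genes 18.1% were higher and 19.3% lower. *Bcl2*, the antiapoptotic founder of its family, stood at 4.48, 4.83 and 4.25 FPKM in sham mice against 17.5, 17.9 and 18.03 with bilateral OD, and at 5.53, 5.53 and 5.09 FPKM opposite to the operation against 5.91, 4.83 and 4.83 on the operated side, and was named after its values were seen (difference 2.01 ± 0.12). The chaperone gene *Clu* gave 0.44 ± 0.24 (adjusted p = 0.166), or 0.70 (adjusted p = 0.00188) without sham replicate 3. The cathepsin *Ctsl* gave −0.90 ± 0.08, *Ctsb* 0.13 ± 0.06 and the matrix protein *Mgp* −0.49 ± 0.22, of which only *Ctsl* was called. Among the lower ones, the matrix metalloprotease *Mmp7* stood at 83.5 ± 3.95 FPKM in sham and 1.74 ± 0.43005 FPKM after bilateral OD, and at 65.99 ± 6.397 and 33.8 ± 4.66 FPKM on the contralateral and ipsilateral sides (difference −4.56 ± 0.32, adjusted p = 2.7e-08). The proapoptotic *Bax* fell from 68.2 ± 2.95 to 41.5 ± 2.24 FPKM after bilateral OD (difference −0.68 ± 0.09, adjusted p = 1.7e-05), and both were named after their values were seen. The receptor tyrosine kinase *Kit* rose after both operations, by 2.31 ± 0.09 and 0.60 ± 0.09 (difference 1.71 ± 0.12, adjusted p = 7.7e-09).

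Genes that carry new secretory proteins into the endoplasmic reticulum (ER) and fold them there fell after bilateral OD almost as one group. Of 24 tested, 23 had a lower and 0 a higher difference by limma (24 lower and 0 higher at an unadjusted p under 0.05), where 19.3% of all genes were lower. The median bilateral change was −1.1, the median unilateral change 0.03 and the median difference −1.04. *Hspa5*, the ER chaperone BiP, stood at 1096, 1076 and 1129.7 FPKM in the sham group and 545, 477 and 450.5 FPKM with bilateral OD, and at 1103, 1101 and 1066 FPKM on the contralateral and 979.6, 997 and 1039 FPKM on the ipsilateral side. Only the bilateral libraries stood far apart, below all others (difference −1.05 ± 0.08, adjusted p = 2.4e-08). The calcium-binding chaperone *Calr* fell from 1922 ± 84.8 to 694 ± 86.6 FPKM and rose from 1748 ± 43.99 to 2139 ± 93.6 FPKM. *Hsp90b1*, which encodes GRP94, and the protein disulfide isomerase gene *Pdia6* moved the same way, with differences of −1.44 ± 0.09 and −1.83 ± 0.09. The most negative difference of the list was that of *Sdf2l1* (−2.36 ± 0.14). The exception was *Canx*, the membrane-bound lectin chaperone calnexin, which rose from 166 ± 9.17 to 195 ± 11.96 FPKM and from 175 ± 5.61 to 236 ± 16.04 FPKM (difference −0.20 ± 0.08, adjusted p = 0.0593). It is not a firm exception. By limma *Canx* was called lower without sham replicate 1, bilateral OD replicate 1 or ipsilateral replicate 3 (adjusted p = 0.0212 to 0.0259). Against ipsilateral tissue alone it was also lower (−0.28, adjusted p = 0.000563).

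**Figure D3:**
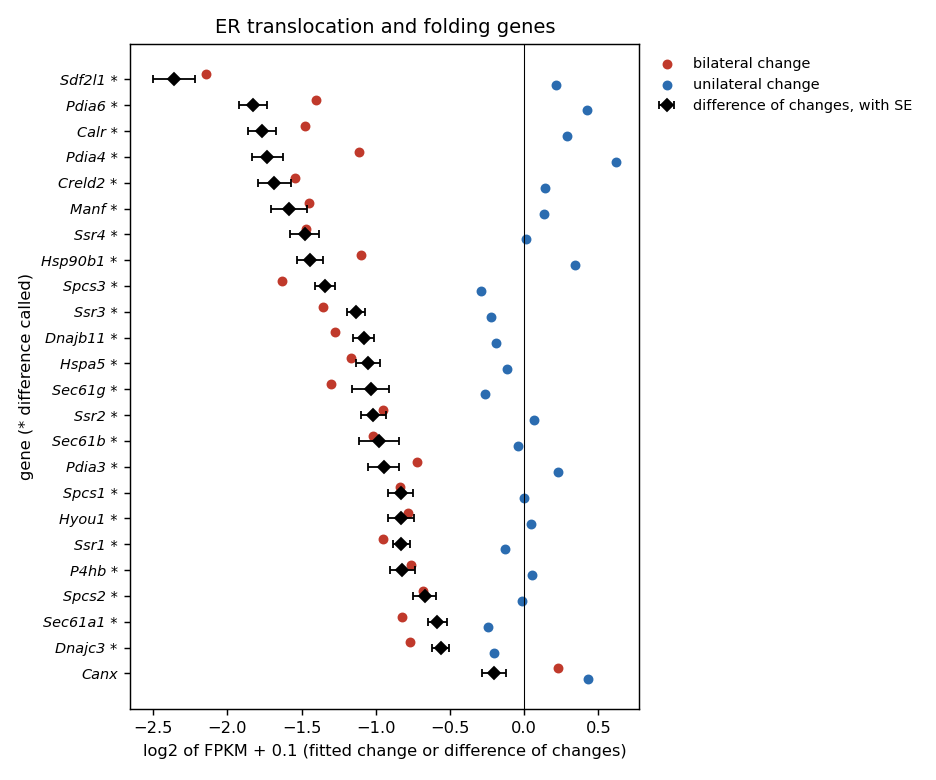
Bilateral change (red), unilateral change (blue) and their difference with its standard error (black) for the 24 ER translocation and folding genes, in log2 of FPKM + 0.1, with called differences starred. All 24 differences lie below 0 and 23 are called, and the one not called is *Canx*.

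The ER stress response element, read here as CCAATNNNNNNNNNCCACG on either strand, is a known control sequence of ER chaperone genes. It overlaps the CCAAT box, which 42% of the genes with a window hold. In the same RefSeq windows it was found in 7 of the 19 genes of this list that have a window (36.8%), against 22 of all 13565 genes tested that have one (0.162%). Of those 22 genes, 11 had a lower difference and 0 a higher one, and the 11 others, *Canx* among them, were not called. Of all 13565 genes with a window, 2714 were called lower and 2428 higher. The 11 lower ones include *Hspa5*, *Calr*, *Hsp90b1*, *Pdia6*, *Dnajc3* and *Creld2*, which belong to the list above, so this count is not separate from it. The windows of 3 chaperone genes that fell and of *Canx*, which did not, are shown because all hold the element, each 5′ to 3′ on the gene's own strand, with each match in capitals. A match is a description of the letters and not a bound site.
Hspa5, chr2:34771840-34772139, plus strand: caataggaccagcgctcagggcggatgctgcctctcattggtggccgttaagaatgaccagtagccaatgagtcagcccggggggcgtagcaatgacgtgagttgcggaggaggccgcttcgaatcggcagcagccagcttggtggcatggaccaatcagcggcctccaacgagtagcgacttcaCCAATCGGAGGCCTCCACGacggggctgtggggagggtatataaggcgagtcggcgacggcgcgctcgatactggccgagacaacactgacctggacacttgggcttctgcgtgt
Hsp90b1, chr10:86705395-86705694, minus strand: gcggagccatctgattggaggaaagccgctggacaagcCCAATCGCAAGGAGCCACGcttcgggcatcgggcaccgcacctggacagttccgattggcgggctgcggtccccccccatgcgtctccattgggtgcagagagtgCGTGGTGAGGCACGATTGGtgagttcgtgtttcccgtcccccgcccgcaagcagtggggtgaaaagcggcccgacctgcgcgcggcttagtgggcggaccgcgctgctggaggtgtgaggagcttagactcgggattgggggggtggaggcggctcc
Creld2, chr15:88819396-88819695, plus strand: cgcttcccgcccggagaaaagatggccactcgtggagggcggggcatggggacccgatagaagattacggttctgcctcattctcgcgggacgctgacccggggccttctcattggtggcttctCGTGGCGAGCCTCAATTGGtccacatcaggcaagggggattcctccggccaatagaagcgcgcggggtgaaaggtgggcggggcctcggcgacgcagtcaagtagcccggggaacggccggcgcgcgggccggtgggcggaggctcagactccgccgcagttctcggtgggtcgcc
Canx, chr11:50325624-50325923, minus strand: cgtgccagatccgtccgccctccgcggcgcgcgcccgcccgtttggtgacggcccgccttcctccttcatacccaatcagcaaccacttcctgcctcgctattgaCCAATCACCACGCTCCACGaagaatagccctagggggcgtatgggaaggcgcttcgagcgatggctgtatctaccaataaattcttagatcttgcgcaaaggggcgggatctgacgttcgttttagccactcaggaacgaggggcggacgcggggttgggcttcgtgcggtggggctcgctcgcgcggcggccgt
The differences of these 4 genes were −1.05 ± 0.08, −1.44 ± 0.09, −1.69 ± 0.11 and −0.20 ± 0.08.

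Sensors and transcription factors of the unfolded protein response moved less evenly. Of 14 tested, 9 had a lower and 4 a higher difference (median −0.44). The transcription factor *Atf4* gave −0.40 ± 0.08 and the ER co-chaperone *Dnajb9* −0.61 ± 0.10. *Xbp1*, whose product drives ER chaperone genes, stood at 133 ± 3.19 FPKM in sham and 129 ± 7.703 FPKM after bilateral OD, and its difference of 0.18 ± 0.07 passed only narrowly (adjusted p = 0.0423). It was 0.0625 to 0.104 without sham replicate 2 or 3, bilateral OD replicate 1, contralateral replicate 1 or 2, or ipsilateral replicate 2 or 3, and 0.0577 with the replicate block within the unilateral pair. FPKM of a gene does not show whether its mRNA was spliced to the active form. *Herpud1* gave −0.05 ± 0.08 and was not called.

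Cholesterol synthesis fell after both operations and further after the bilateral one. Of 18 enzymes in the list used, which is not the whole pathway, 18 fell after the bilateral and 14 after the unilateral operation, and 17 had a lower and 1 a higher difference, with medians of −1.86 for the bilateral, −0.69 for the unilateral change and −1.06 for the difference. For 11 of them the contralateral side was called below sham, which adds to a lower difference. *Nsdhl*, an enzyme of sterol demethylation, stood at 184, 179 and 187 FPKM in sham mice against 17.9, 16.6 and 17.3 with bilateral OD, and at 151, 162 and 156 FPKM opposite to the operation against 81.7, 90.7 and 84.7 on the operated side. The 4 tissues did not overlap (difference −2.54 ± 0.08, adjusted p = 2.2e-13, contralateral minus sham −0.23 ± 0.06). *Fdps*, which makes farnesyl diphosphate, fell from 215 ± 7.96 to 52.4 ± 4.98 FPKM after bilateral OD and stood at 174 ± 8.96 and 165 ± 11.5 FPKM on the unilateral sides. *Msmo1* gave −1.39 ± 0.10, *Hmgcs1* −0.73 ± 0.09 and the sterol reductase gene *Tm7sf2*, the most negative difference of the list, −2.67 ± 0.16.

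The higher difference belonged to an enzyme at the end of the pathway. *Dhcr7*, the 7-dehydrocholesterol reductase, fell from 12.2 ± 1.46 to 3.54 ± 0.634 FPKM and from 9.05 ± 0.7795 to 1.102 ± 0.0523 FPKM (difference 1.16 ± 0.19).

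**Figure D4:**
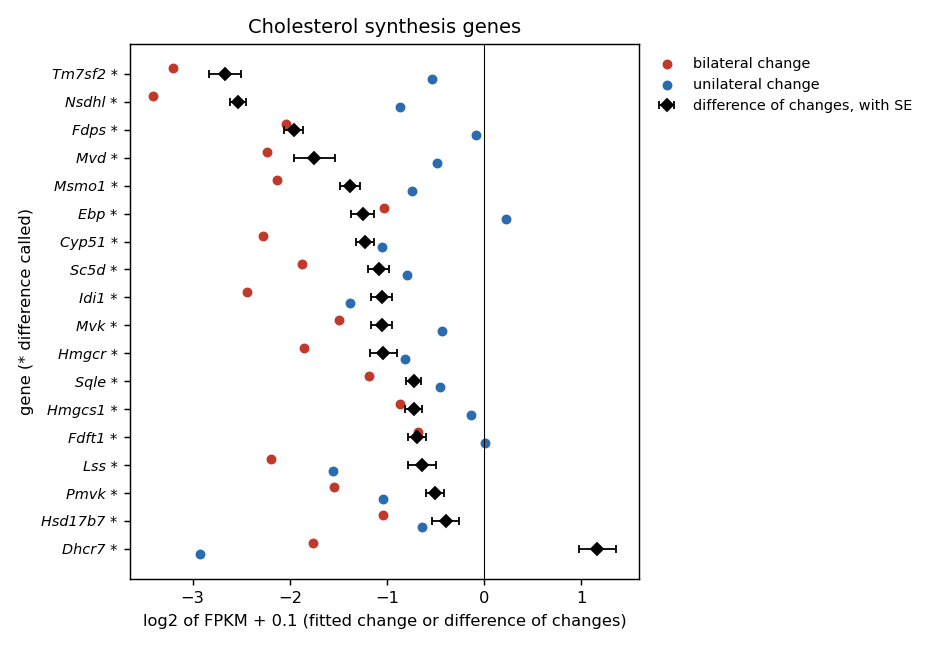
Bilateral change (red), unilateral change (blue) and their difference with its standard error (black) for the 18 cholesterol synthesis genes, in log2 of FPKM + 0.1, with called differences starred. 17 differences lie below 0, and that of *Dhcr7* lies above it.

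Fatty acid synthesis also fell further after bilateral OD, with 10 lower and 1 higher difference among 16 genes (median −0.63). The shares over all genes were 19.3% and 18.1%. *Acly*, which makes cytosolic acetyl-CoA from citrate, stood at 330.2, 364 and 398 FPKM in sham mice against 89.04, 74.7 and 77.4 with bilateral OD, and at 427, 416 and 407 FPKM opposite to the operation against 482, 498 and 492 on the operated side. It fell after the bilateral operation and was 0.23 ± 0.07 log2 units higher ipsilaterally (difference −2.41 ± 0.10, adjusted p = 3.9e-12). The desaturases *Scd2*, *Fads2* and *Fads1* gave differences of −1.11 ± 0.07, −1.78 ± 0.09 and −0.96 ± 0.07.

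Among the secreted families, 16 of 33 β-defensin genes had a lower and 1 a higher difference (median −2.6). *Defb20* fell from 11924 ± 639 to 365 ± 69.2 FPKM and from 8539 ± 457 to 4582 ± 780.4 FPKM. *Defb25* fell to 72.9 ± 10.2 FPKM after bilateral OD and 34.2 ± 11.1 FPKM ipsilaterally (difference 0.63 ± 0.33, adjusted p = 0.148), and *Defb48* to 0.733 ± 0.676 and 2.28 ± 0.611 FPKM (−2.67 ± 0.99, adjusted p = 0.0507). The higher one was *Defb29*, which rose from 154 ± 31.6 to 1042 ± 98.1 and from 189 ± 9.397 to 395 ± 70.4 FPKM.

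Of 12 lipocalin genes, 8 had a lower and 0 a higher difference by limma (0 higher at an unadjusted p under 0.05, median −2.87). *Lcn8* fell from 16937 ± 2273 to 1.39 ± 0.142 FPKM and from 11325 ± 543 to 18.4 ± 4.87 FPKM. *Lcn2*, an iron-siderophore carrier, fell from 10645 ± 525 to 832 ± 71.98 and from 7920.3 ± 323 to 3059.8 ± 402 FPKM. *Lcn9* was listed at 0 in all 3 libraries of bilateral OD and at 0, 0.121 and 0.207 FPKM ipsilaterally, against 9704 ± 817 FPKM in sham and 6732 ± 283 contralateral, and enters the median with 0.1 FPKM added.

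Cystatins went the other way, with 7 of 12 differences higher and 2 lower (median 1.93), against 18.1% and 19.3% of all genes. The 2 lower ones were *Cstb* (−1.11 ± 0.09), a cytosolic cathepsin inhibitor, and *Cst6* (−1.31 ± 0.42, adjusted p = 0.0209, 0.0504 to 0.0630 without bilateral OD replicate 3, contralateral replicate 1 or ipsilateral replicate 1 or 2). *Cst3*, cystatin C, rose from 1303 ± 72.5 to 4473 ± 441 FPKM after bilateral OD and stood at 1113 ± 35.4 and 940.5 ± 30.7 FPKM on the unilateral sides. *Cst12* gave 2.38 ± 0.63. Of 24 WAP and Kazal protease inhibitor genes, 17 had a lower and 2 a higher difference (median −1.76). The higher ones were *Spink8* (1.33 ± 0.26) and *Wfdc2* (2.73 ± 0.26), and *Wfdc10* and *Spink11* gave −2.22 ± 0.13 and −3.42 ± 0.35. Without sham replicate 3 the differences of *Spink8* and *Spink11* were 1.63 and −3.04. The list does not hold *Wfdc17*, which also had a higher difference.

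Targets and feedback regulators of ERK signalling, the pathway downstream of ROS1 in the initial segment, fell after both operations but less after the bilateral one. Of 19 tested, 15 fell after bilateral and 16 after unilateral OD, while 12 had a higher and 3 a lower difference (median 0.54). The shares over all genes were 18.1% higher and 19.3% lower. The ETS factor *Etv5* fell from 209 ± 19.7 to 3.67 ± 0.399 FPKM and from 179 ± 9.28 to 2.01 ± 0.221 FPKM (difference 0.62 ± 0.12, adjusted p = 6.3e-04). *Etv4*, which shares that role, fell to 0.892 ± 0.112 and 0.128 ± 0.13999 FPKM. The phosphatase gene *Dusp6* gave 0.53 ± 0.17 (adjusted p = 0.0211), which ranged from 0.0562 to 0.0627 without sham replicate 3, bilateral OD replicate 2 or bilateral OD replicate 3. *Phlda1* gave 1.22 ± 0.10, and *Ccnd1*, the cyclin of G1 phase, fell further after bilateral OD (−1.15 ± 0.17).

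Cell cycle genes fell after both operations, 22 of 23 after the bilateral and 21 of 23 after the unilateral one. The difference was lower for 12 and higher for 1, *Cdc20* (0.83 ± 0.24), against 19.3% and 18.1% of all genes. The mitotic cyclin *Ccnb1*, with the lowest difference of the list, fell from 2.35 ± 0.143 to 0.0323 ± 0.0331 FPKM and from 2.15 ± 0.273 to 0.646 ± 0.139 FPKM.

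**Figure D5:**
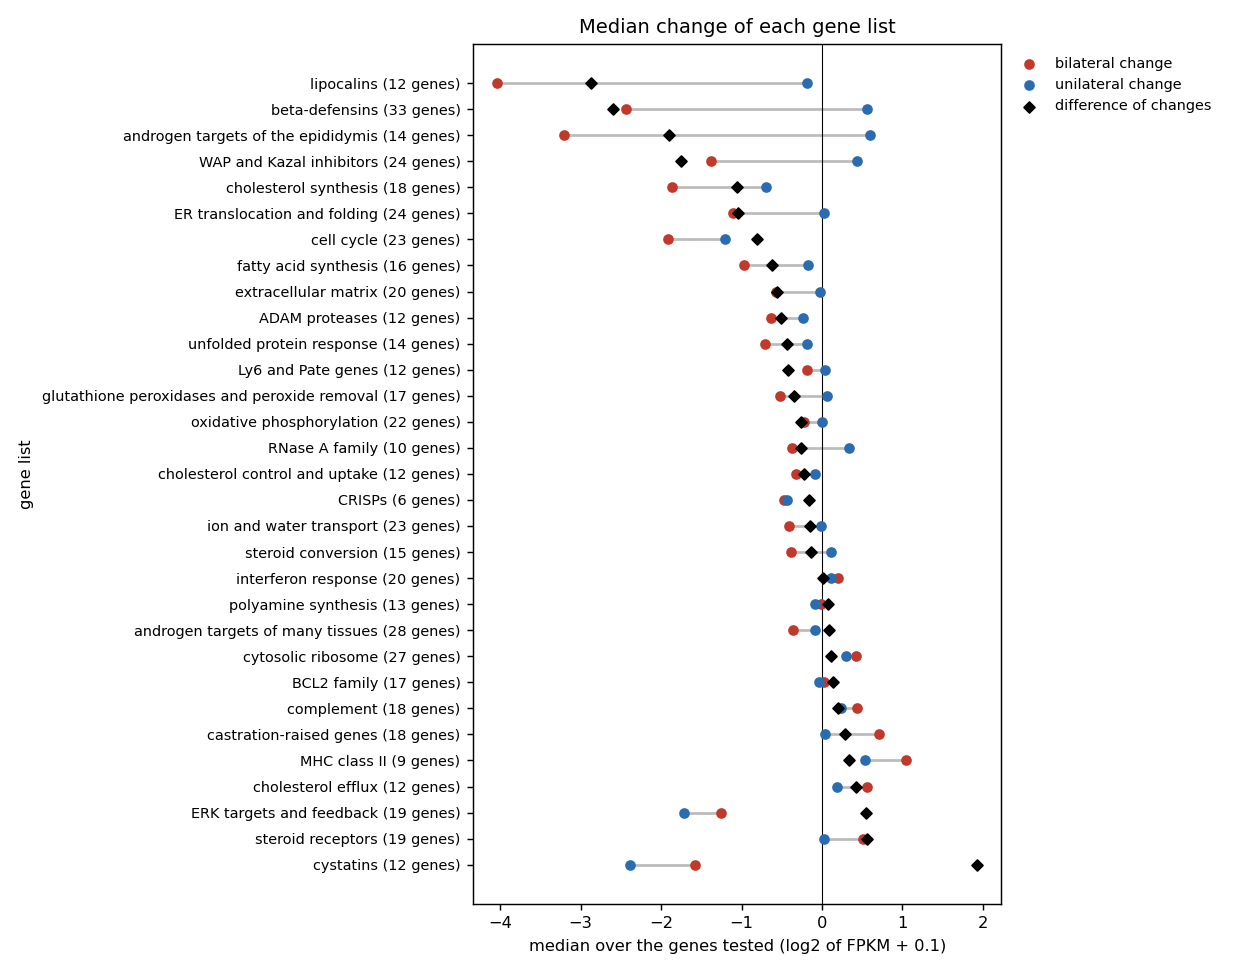
Median bilateral change (red), unilateral change (blue) and difference of changes (black) over the tested genes of each list, in log2 of FPKM + 0.1. Lipocalins, β-defensins, WAP and Kazal inhibitors and ER translocation and folding genes have medians of the difference below −1, as have cholesterol synthesis and epididymal androgen target genes, and cystatins lie at 1.93.

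Clear and narrow cells, the proton-secreting cells of the duct, are few beside the principal cells. Of 10 of their markers, 7 had a higher and 2 a lower difference (median 1.28), and the summed level was 305 to 353 FPKM in the sham group and 377 to 466 FPKM with bilateral OD, and 334 to 350.2 FPKM on the contralateral and 578 to 584 FPKM on the ipsilateral side. The factor *Foxi1*, which defines these cells, rose from 35.6 ± 1.81 to 107 ± 19.5 and from 37.4 ± 1.23 to 78.1 ± 6.64 FPKM. The proton pump subunit *Atp6v1g3* gave 1.64 ± 0.12 and *Atp6v0d2* 0.95 ± 0.09. The 2 lower ones were the ammonium transporter *Rhcg*, which stood at 163, 169 and 206 FPKM in sham mice against 6.38, 4.55 and 4.93 with bilateral OD, and at 215, 206 and 192 FPKM opposite to the operation against 371, 380.3 and 393 on the operated side, and the carbonic anhydrase *Car12* (−1.21 ± 0.15). *Rhcg* alone made up most of the summed level ipsilaterally and little of it after bilateral OD, so the sums do not follow the other markers.

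Of 13 principal cell markers, 9 had a lower and 2 a higher difference, and their sum was 70468 to 73372 FPKM in the sham group and 2755 to 2926 FPKM with bilateral OD, and 55648 to 57442 FPKM on the contralateral and 29407 to 36009.8 FPKM on the ipsilateral side. *Gpx5*, *Adam7* and *Crisp1*, described above, are among these markers. *Gpx5* made up most of the sum in both control tissues and stood at 42207 ± 1370 FPKM in sham and 821 ± 131 FPKM after bilateral OD. After bilateral OD 9 of the 13 fell (median bilateral change −1.51). The structural members *Krt18* and *Cdh1* gave differences of 0.11 ± 0.09 and 0.20 ± 0.09, not called, *Epcam* 0.39 ± 0.07, *Krt8* −0.42 ± 0.07 and *Krt19* −1.87 ± 0.11. Smooth muscle markers summed to 1871 to 2225 FPKM in sham mice against 268 to 350.5 with bilateral OD, and to 1680.5 to 1803 FPKM opposite to the operation against 525 to 687 on the operated side, with 3 of 9 differences lower. *Actg2*, the smooth muscle γ-actin gene, made up most of this sum in both control tissues and fell from 1717 ± 158 to 13.8 ± 2.59 FPKM and from 1245 ± 25.7 to 40.005 ± 5.796 FPKM, whereas the median marker changed by −0.17 after bilateral and 0.18 after unilateral OD. Contralateral tissue was called above sham for 6 of the 9. In the order sham, bilateral OD, contralateral and ipsilateral macrophage markers summed to 117 to 122, 159 to 218, 106 to 117 and 139 to 142 FPKM, with 1 of 10 higher. Adipocyte markers summed to 1.99 to 14.8, 16.7 to 146, 2.81 to 7.51 and 10.3 to 17.8 FPKM, with 2 of 8 higher. T and NK cell markers summed to 177 to 195, 13.2 to 15.8, 145 to 154 and 6.88 to 10.95 FPKM, with 1 of 9 lower and 1 higher. *Klrb1c*, an NK cell receptor gene, made up most of the T and NK sum in both control tissues and fell from 184 ± 10.1 to 1.72 ± 0.119 FPKM and from 146 ± 5.02 to 4.204 ± 0.633 FPKM, whereas 5 of the 9 rose after bilateral OD (median 1.13, unilateral 0.41). *Actg2* and *Klrb1c* were named after their values were seen. Sperm and late germ cell markers summed in that order to 97.6 to 121, 17.01 to 18.4, 87.9 to 118 and 16.4 to 23.4 FPKM, with 3 of 16 lower and 1 higher. Among all genes 19.3% were lower and 18.1% higher, and several of these marker counts lie near or below those shares. No tested marker of these lists was at 0 in all 12 libraries. The part of these shifts in the differences above was not tested.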

How the data were processed

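The authors aligned 101 bp single-end reads of stranded mRNA libraries of IS-caput epididymis to mm10 with TopHat2 2.1.1 and computed the deposited FPKM of 24346 genes with Cufflinks 2.2.1. The deposited table calls these values normalized FPKM, and they were used as given. Median-ratio factors, which compare the typical gene between libraries, were 1.004 to 1.013 over the 18 libraries. The values were thus already level at the typical gene, although their sums differed. Library labels and methods name different makers of the RNA kit.

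Log2(FPKM + 0.1) was fitted with limma 3.58.1 (R 4.3.3, eBayes with trend and robust) on 6 group means over 18 libraries, with 12 residual degrees of freedom. No libraries were paired. The difference of changes is a contrast of this fit, and p were adjusted by Benjamini-Hochberg over the 17302 genes that reach 0.1 FPKM in 3 libraries. Genes are called at adjusted p under 0.05. The other 7044 genes were left out. The fit was checked on simulated data. P-values measure the spread of 3 libraries per group, labelled as replicates.

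Genes named are those with a called difference, a mean of at least 10 FPKM and 9 bilateral library differences that do not overlap the 9 unilateral ones. From each of 6 call patterns the 4 to 10 largest differences were taken. Up to 4 members of highest mean FPKM of each list and 11 further genes were added, and a few genes that these rules or lists would include are not reported here, so the counts and medians of lists do not cover every gene of a pathway. Any other gene, such as the exceptions of a list, was chosen after its values were seen. Members, lists and tests were chosen with earlier results of these data known. Alternatives were 1 or 0.01 FPKM added, no filter or 1 FPKM, median-ratio scaling, the 12 libraries alone, 2 replicate blocks, bilateral OD against ipsilateral tissue and each library left out. Median-ratio scaling hardly altered the values, as its factors were 1.004 to 1.013, so it cannot test how they were scaled. Gene positions and promoter windows (13565 of 17302 genes) are from RefSeq on GRCm38.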

Additional observations from a re-analysis of the deposited data

Results flagged for a closer look

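The bilateral and unilateral changes went in opposite called directions for 495 genes that fell after bilateral and rose after unilateral OD, and for 204 genes that did the reverse. For each the difference between the 2 operations was itself called in the same fit. That call follows almost directly from 2 opposite called changes and is no separate evidence. Among the genes named by rule, those with opposite called changes were *Lypd8* (difference of changes −9.62 ± 0.12), *Lrcol1* (−8.98 ± 0.22), *Lcn12* (−7.29 ± 0.14), *C1qtnf9* (−6.91 ± 0.19) and *Hpdl* (−6.66 ± 0.13). All of them fell after bilateral and rose after unilateral OD.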

How the results depend on the processing

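The counts of lower and higher differences and of 4 call patterns stayed within 1.5 times their values under all alternatives run. Leaving out 1 library gave 3099 to 3399 lower and 2753 to 3062 higher differences. The fell-only and rose-only counts ranged from 1446 to 1652 and from 1482 to 1740, and the opposite ones from 397 to 539 and from 149 to 207. These 4 counts and those of the gene lists were rerun as alternatives chosen after the data were seen. The replicate block over all groups gave 3319 lower and 3065 higher differences, and that within the unilateral pair 3278 and 3004. Same-numbered contralateral and ipsilateral libraries deviated together with correlations of only −0.06 to 0.07. For sham and bilateral OD libraries, which come from different mice, the correlations were −0.10 to −0.06. Samples were not paired because the study's methods use unpaired tests and no source used here states which libraries share a mouse. Bilateral OD set against ipsilateral tissue without controls gave 4148 and 4486.

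Of 62 list counts (31 lists, lower and higher), 40 stayed within 1.5 times in every alternative. Of the 21 counts of at least 7, 17 did. The 4 others were castration-raised genes higher (7, or 11 against ipsilateral tissue alone), cytosolic ribosome genes higher (7, or 15 against ipsilateral tissue alone and 4 without sham replicate 2, bilateral OD replicate 1 or contralateral replicate 3), ion and water transport genes lower (9, or 5 without bilateral OD replicate 2) and extracellular matrix genes lower (7, or 16 against ipsilateral tissue alone, 4 with the 12 libraries alone and 4 without ipsilateral replicate 3). Among smaller counts, steroid conversion genes lower went from 5 to 3 without sham replicate 1, contralateral replicate 3 or ipsilateral replicate 1, and unfolded protein response genes higher from 4 to 2 without sham replicate 2 or ipsilateral replicate 2. The single higher β-defensin became 2 or 3 without sham replicate 1 or 3 or ipsilateral replicate 1 or 3, and reached 4 over all alternatives. The single higher fatty acid synthesis gene was lost in 8 alternatives. Among them were those without sham replicate 3, bilateral OD replicate 1 or 2, contralateral replicate 3 or any ipsilateral library. The count of 0 higher became 1 for lipocalins without bilateral OD replicate 1, and 1 for peroxide removal genes without bilateral OD replicate 3 or ipsilateral replicate 2. Over all alternatives it rose in 2 for lipocalins, to 1, and in 3 for peroxide removal genes, to at most 2.

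Of 116 named genes with a called difference, 109 kept their call in all 21 alternatives. The others were *Ndufs5*, *Xbp1*, *Atp6v0c-ps2*, *Cst6*, *Dusp6*, *Esr1* (adjusted p = 0.0540 against ipsilateral tissue alone) and *Cst12* (0.229 with 0.01 FPKM added). In limma the replicate block ended the calls of *Ndufs5* (both blocks) and *Xbp1* (within the unilateral pair) and no other call of a named gene. Some named genes without a call gained one. *Defb48* did so in several alternatives, among them those without any 1 bilateral OD library (adjusted p = 0.000392 to 0.0314). Others were *Canx*, *Mgp*, *Defb25* and *Cdh1*, and *Clu* without sham replicate 3. *Srd5a1*, *Lars2*, *Krt18* and *Ctsb* gained a call against ipsilateral tissue alone. Signs turned only in named genes without a call. Against ipsilateral tissue alone they were *Clu* (−0.0619), *Rxra* (0.0356), *Hsd17b10* (0.176, called), *Herpud1* (0.0233) and *Sod1* (0.0615). *Srd5a1* became −0.0402 with 1 FPKM added and ranged from −0.103 to 0.0776 without 1 library, *Lars2* from −0.231 to 0.0146 and *Rxra* from −0.0807 to 0.0336. The causes were not tested. FPKM near 0.1 rest on few reads, which limits genes that are nearly absent in a tissue.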

Other observations

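Genes that remove peroxides followed *Gpx5* in part. Of 17 tested, 11 had a lower and 0 a higher difference by limma (1 higher at an unadjusted p under 0.05), with a median of −0.35. *Prdx6*, a peroxiredoxin that also acts on phospholipids, stood at 402, 391 and 397 FPKM in the sham group and 144, 129.6 and 127 FPKM with bilateral OD, and at 357, 368 and 334 FPKM on the contralateral and 316, 322 and 329.7 FPKM on the ipsilateral side (difference −1.44 ± 0.08). *Prdx1* gave −0.48 ± 0.09, and the cytosolic superoxide dismutase *Sod1* −0.08 ± 0.10, not called.

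Oxidative phosphorylation genes shifted slightly, with 14 of 22 differences lower and 0 higher by limma (0 higher at an unadjusted p under 0.05) and a median of −0.26. Contralateral tissue was called below sham for 7 of the 22 (median −0.13), which enters these differences, and the list does not hold *Ndufs5*. Cytosolic ribosome genes rose after both operations, 23 of 27 in each, with a median difference of 0.11. Extracellular matrix genes were divided, with 7 of 20 lower and 5 higher, and contralateral tissue was called above sham for 10 of them. Of 13 polyamine synthesis genes, 3 had a lower and 4 a higher difference, against 19.3% and 18.1% of all genes. Their first enzyme, ornithine decarboxylase (*Odc1*, named after its values were seen), fell from 67.5 ± 0.882 to 32.97 ± 2.27 FPKM after bilateral OD and stood at 62.2 ± 0.523 and 65.3 ± 1.05 FPKM on the unilateral sides (difference −1.1 ± 0.07, adjusted p = 1.5e-09). Of 16 sperm and late germ cell markers, 12 fell after bilateral and 13 after unilateral OD, and 3 differences were lower and 1 higher.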
